A study of Mus musculus with 6 samples.

Results

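Complex I genes were taken as all genes whose symbol starts with Nduf and that have an array feature (a transcript cluster) naming no other gene. They numbered 43 of the 19938 genes measured in this way, and where a gene had several such clusters the one with the highest mean over all arrays was used. By class there were 6 core subunits, 30 accessory genes and 7 assembly factors (symbols starting with Ndufaf). The accessory genes include Ndufa4, now assigned to cytochrome c oxidase, and its paralogue Ndufa4l2, and there were 28 without them. The mitochondrially encoded core subunits are not analysed here. Ndufb4 lay only on clusters shared with Ndufb4b and is described in the closing observations.

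The hearts came from C57BL/6J mice aged 14 days (P14) that had been given ETX, or phosphate-buffered saline (PBS) as its vehicle, for 1 week, and their RNA was hybridised to Affymetrix arrays whose probes cover whole transcripts. Each group had 3 hearts labelled as biological replicates (ETX 6, 7 and 10, and PBS 3, 9 and 12), with 1 array per heart. The labels do not spell out ETX and state no dose, route or sex. In work on cardiac metabolism the letters usually stand for etomoxir, an inhibitor of the carnitine shuttle that, as background from cultured cells, can also inhibit complex I itself at high concentrations. All values are the authors' log2 signals, so that a difference of 1 is a doubling. A level on one cluster cannot be compared with that on another, and only differences between hearts are described.

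Complex I, NADH:ubiquinone oxidoreductase, is the entry point of electrons from NADH into the respiratory chain, and it pumps protons across the inner mitochondrial membrane. Its core subunits carry the flavin and iron-sulfur clusters in the peripheral arm and the proton channels in the membrane arm. Accessory subunits surround and stabilise this core, and assembly factors help to build the enzyme without remaining in it. The heart is dense in mitochondria and rich in these transcripts.

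Of the 43 genes, 38 had an entry in the RefSeq promoter table (build GRCm38.p6), which gives the 250 bases before and 50 bases after each gene's start. Ndufa2, Ndufa4l2, Ndufaf6, Ndufb9 and Ndufs1 had none. The promoters printed here belong to the assembly factors whose ETX and PBS values did not overlap, to Ndufb6, the accessory subunit with the smallest p, and to Ndufs4 as an example of the motif most often found. They are written 5′ to 3′ on the gene's strand, and capitals mark a match to 1 of 5 motifs searched on both strands.
Ndufaf1, chr2:119662785-119663084, minus strand: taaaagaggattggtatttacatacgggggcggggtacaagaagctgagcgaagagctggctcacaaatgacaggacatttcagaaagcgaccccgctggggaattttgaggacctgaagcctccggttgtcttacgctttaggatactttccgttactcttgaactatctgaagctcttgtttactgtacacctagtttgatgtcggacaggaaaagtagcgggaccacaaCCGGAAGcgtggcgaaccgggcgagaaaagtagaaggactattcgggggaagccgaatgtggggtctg
Ndufaf2, chr13:108158576-108158875, minus strand: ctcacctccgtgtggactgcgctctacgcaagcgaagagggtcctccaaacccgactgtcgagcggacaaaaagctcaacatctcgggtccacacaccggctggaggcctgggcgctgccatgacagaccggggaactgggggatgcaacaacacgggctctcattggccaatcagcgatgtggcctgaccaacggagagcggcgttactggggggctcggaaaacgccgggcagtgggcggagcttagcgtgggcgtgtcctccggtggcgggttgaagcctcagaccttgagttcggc
Ndufaf7, chr17:78936885-78937184, plus strand: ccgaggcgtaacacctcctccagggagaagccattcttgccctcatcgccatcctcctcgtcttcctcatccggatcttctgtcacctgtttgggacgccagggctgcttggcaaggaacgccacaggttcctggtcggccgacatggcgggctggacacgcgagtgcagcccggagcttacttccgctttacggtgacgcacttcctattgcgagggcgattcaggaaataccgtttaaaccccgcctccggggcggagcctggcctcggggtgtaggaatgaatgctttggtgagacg
Ndufaf4, chr4:24897833-24898132, plus strand: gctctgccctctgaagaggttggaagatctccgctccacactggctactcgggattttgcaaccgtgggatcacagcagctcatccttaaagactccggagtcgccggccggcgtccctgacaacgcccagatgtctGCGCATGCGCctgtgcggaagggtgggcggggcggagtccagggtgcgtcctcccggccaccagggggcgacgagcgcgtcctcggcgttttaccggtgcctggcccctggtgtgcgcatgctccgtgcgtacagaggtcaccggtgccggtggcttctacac
Ndufb6, chr4:40279372-40279671, minus strand: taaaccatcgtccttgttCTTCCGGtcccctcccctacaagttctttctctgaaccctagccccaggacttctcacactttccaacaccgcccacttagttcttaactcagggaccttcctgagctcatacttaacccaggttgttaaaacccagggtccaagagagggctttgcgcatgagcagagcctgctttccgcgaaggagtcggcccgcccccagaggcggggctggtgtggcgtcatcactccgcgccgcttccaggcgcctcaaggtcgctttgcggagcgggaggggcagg
Ndufs4, chr13:114388045-114388344, minus strand: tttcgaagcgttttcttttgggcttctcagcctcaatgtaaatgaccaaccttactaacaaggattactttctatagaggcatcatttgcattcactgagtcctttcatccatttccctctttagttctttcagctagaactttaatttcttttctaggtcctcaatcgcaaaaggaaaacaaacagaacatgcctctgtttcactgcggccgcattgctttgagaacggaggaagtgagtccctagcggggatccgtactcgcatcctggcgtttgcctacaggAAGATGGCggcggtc
The motif AAGATGGC, which the factor YY1 recognises, was found in 7 of the 40 promoters of complex I genes (17.5%), against 2.75% of all 32851 promoters in the table. These were the promoters of Ndufs4, Ndufs6, Ndufs7, Ndufa3, Ndufa9, Ndufb8 and Ndufc1. The palindromic site of nuclear respiratory factor 1 (NRF1), whose 10 letters are the capitals in the Ndufaf4 promoter, was found in 3 of 40 (7.5%), those of Ndufaf4, Ndufaf5 and Ndufa11, against 0.971% of all promoters. The GABP and ETS motif CCGGAAG was found in 5 (12.5%, against 8.86% of all), the estrogen-related receptor motif AAGGTCA in 2 (5.0%, against 4.72%) and the TATA box TATAAA in 5 (12.5%, against 13.6%). Matches to different motifs overlapped in 0 of the 40 promoters. The complex I promoters had a median of 59.2% G and C, against 52.7% for all promoters, and the part of this base composition in the shares was not tested. A match is a stretch of letters and says nothing on whether the factor binds there.

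In ETX hearts most structural subunits lay close to their levels in PBS hearts, while most assembly factors lay somewhat above theirs. No single gene passed the test. Among the structural subunits Ndufs1 stood lowest (ETX minus PBS -0.26) and Ndufb6 highest (0.24). The core subunits had a median difference (ETX minus PBS) of -0.03, with 2 of 6 above 0. The accessory genes had a median of 0.04, with 23 of 30 above 0, and without Ndufa4 and Ndufa4l2 it was 0.04 with 22 of 28. The assembly factors had a median of 0.21, with 6 of 7 above 0. Over all 14953 genes tested the median was -0.006, and 48.4% lay above 0. The arrays hold RNA of whole hearts, in which fewer cells of a type and less RNA per cell cannot be told apart.

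**Figure D1:**
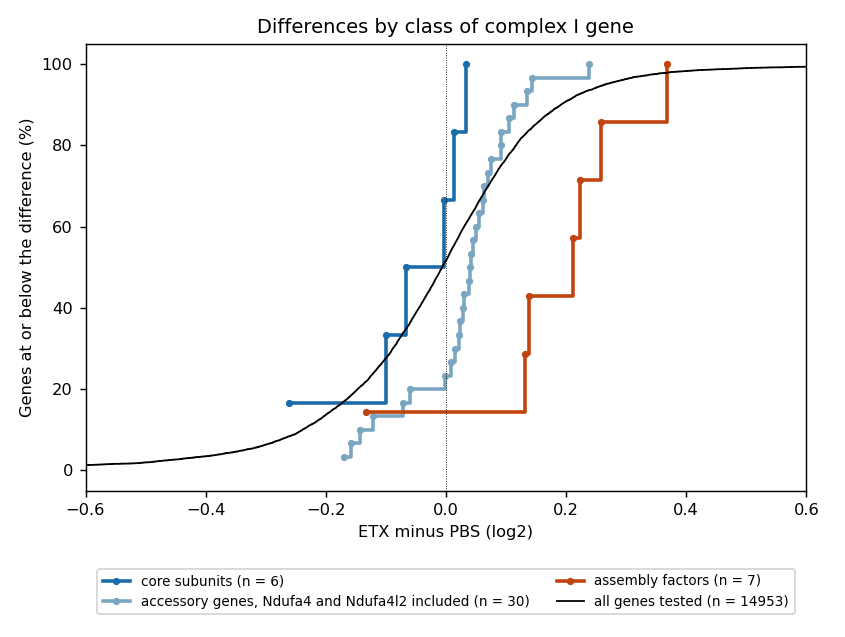
Cumulative share of genes (vertical axis, %) at or below each ETX minus PBS difference (horizontal axis, log2), for core subunits, accessory genes, assembly factors and all genes tested. The curve of the 7 assembly factors crosses 50% at 0.21 and those of the 6 core and 30 accessory genes near 0, while its lowest member, Ndufaf4, lies at -0.13.

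All 43 genes passed the filter on dim genes, and 0 of them passed an adjusted p of 0.05 in limma, where 533 of all genes tested did (3.56%). At an unadjusted p under 0.05, 6 complex I genes were counted, Ndufs1, Ndufb6, Ndufaf1, Ndufaf2, Ndufaf6 and Ndufaf7, or 5 higher and 1 lower, beside 21.9% of all genes tested. The ETX and PBS values of 11 complex I genes did not overlap, 7 higher and 4 lower in ETX, beside 27.7% of all genes tested. By class these were 5 of the 7 assembly factors, 5 of the 30 accessory genes and 1 of the 6 core subunits. By direction, 8.86% of all genes tested were higher and 13.1% lower at an unadjusted p under 0.05, and 11.6% were higher and 16.1% lower without overlap. With both directions together the complex I counts were not above the shares of all genes tested, while by direction the counts higher in ETX were above them and those lower in ETX below. That difference in direction was not tested. The 95% interval of the difference lay within 1.5-fold either way for 42 of 43 genes, Ndufaf6 being the exception, and within 1.3-fold for 38. Over all genes tested, 92.0% of intervals lay within 1.5-fold and 70.3% within 1.3-fold. These intervals are not adjusted for the number of genes.

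**Figure D2:**
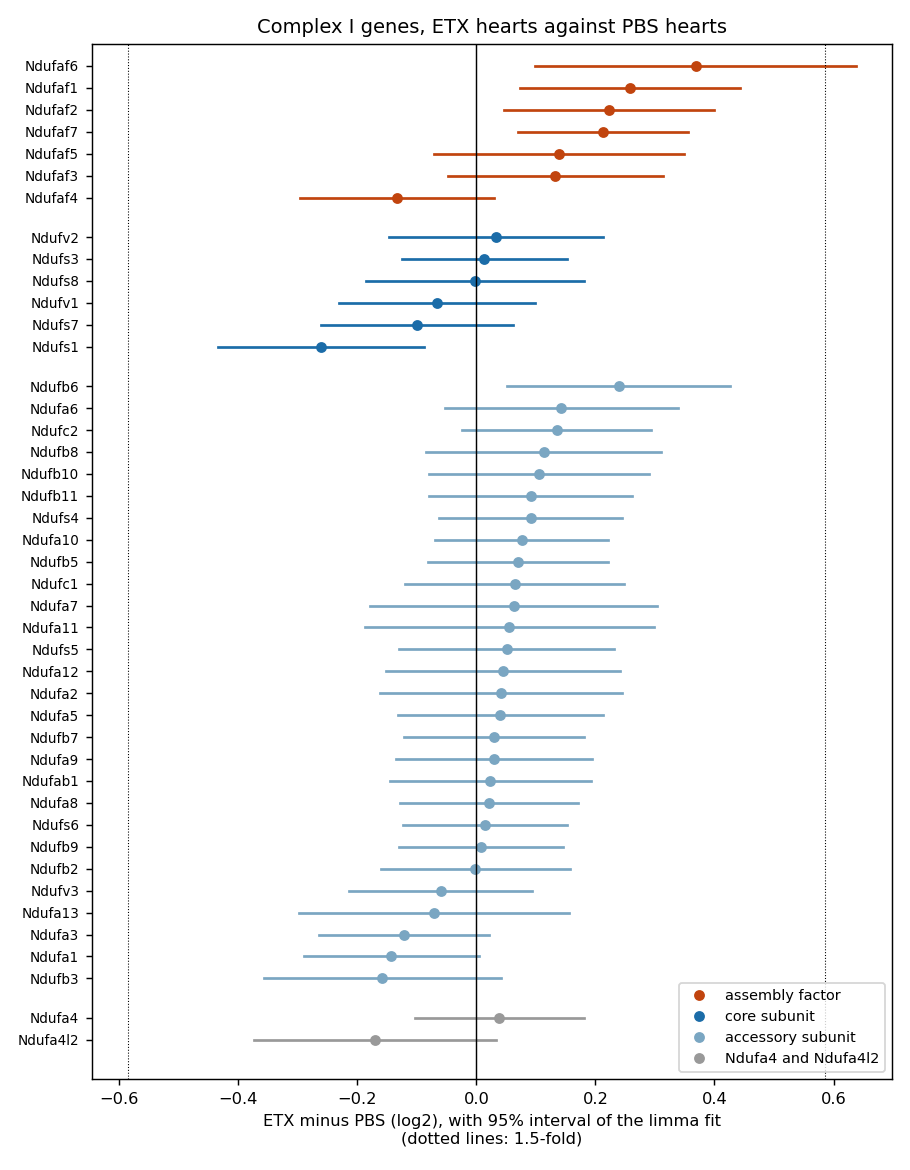
Difference between ETX and PBS hearts (log2, points) with the 95% interval of the limma fit (lines) for each of the 43 genes, 3 hearts per group; dotted lines mark a 1.5-fold difference. Ndufaf6 has the highest difference (0.37) and Ndufs1 the lowest (-0.26), and only the interval of Ndufaf6 crosses a dotted line.

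Lung transcripts and atrial transcripts differed between the hearts, and so did markers of other cells. All 10 lung markers were on the array, and their mean level was 3.69 to 3.78 in ETX hearts, against 5.78 in PBS replicate 3, 6.83 in PBS replicate 9 and 3.65 in PBS replicate 12. The mean level of the 5 atrial markers was 8.47, 8.59 and 6.84 in ETX replicates 6, 7 and 10, against 8.37, 6.17 and 6.30 in PBS replicates 3, 9 and 12. By this mean, ETX replicate 10 and PBS replicates 9 and 12 are called the hearts without high atrial transcripts. In ETX replicate 10 Myl4, Myl7, Sln and Mybphl lay near PBS replicates 9 and 12, but Nppa did not. Nppa was at 12.12, 12.48 and 11.89 in ETX hearts, against 12.05, 9.28 and 9.04 in PBS hearts. The 11 cardiomyocyte markers, which include Actc1, Myh6 and Tnnt2, were high on all arrays. They averaged 12.11 to 12.23 in ETX hearts and 12.17 to 12.19 in PBS hearts. Of these 11, 2 had a higher mean in ETX hearts, Mybpc3 (difference 0.30) and Actn2 (0.21). The others had a lower mean, Tnni3 by the most (-0.23). At an adjusted p of 0.05 in limma 0 of the 11 passed. The macrophage markers averaged 6.55 to 6.64 in ETX hearts and 7.09 to 7.30 in PBS hearts. The endothelial markers averaged 8.83 to 8.98 in ETX hearts and 9.20 to 9.27 in PBS hearts. The fibroblast markers averaged 9.71 to 9.86 in ETX hearts and 9.92 to 10.10 in PBS hearts. Every macrophage, endothelial and fibroblast marker had a lower mean in ETX hearts. At an adjusted p under 0.05 in limma these were 5 of 6, 3 of 5 and 1 of 5. Of all genes tested, 3.56% passed in either direction. Of the brown fat markers, Ucp1, the uncoupling protein of that mitochondria-rich tissue, was at 5.72 in ETX replicate 6, against 3.57 to 3.77 in the other 5 hearts. Cidea, a lipid droplet protein on the same list, was at 8.07, 8.30 and 8.28 in ETX hearts, against 7.79, 7.71 and 7.72 in PBS hearts, and rose (difference 0.47, limma adjusted p = 0.0266). Elovl3, the last of the 3 brown fat markers, was below the filter on dim genes. Except where values without these hearts are given, the part of these cells in the differences was not tested.

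Among the core subunits, which carry the electrons from NADH to ubiquinone, Ndufs1 stood lowest in ETX. Ndufs1, the large iron-sulfur subunit at the tip of the peripheral arm, was at 10.29, 10.22 and 10.33 in ETX replicates 6, 7 and 10, against 10.54, 10.44 and 10.64 in PBS replicates 3, 9 and 12. All 3 ETX hearts lay below all 3 PBS hearts. The difference was -0.26 ± 0.08 (SE, n = 3 per group; 95% interval -0.43 to -0.09), so that PBS was 1.20-fold higher, and it did not pass (limma adjusted p = 0.0995). With a variance trend and robust fitting in limma, Ndufs1 passed (adjusted p = 0.0418), and it was the only one of the 43 genes to do so under any alternative tried. The difference was -0.36 against PBS replicate 12 alone, the PBS heart without lung transcripts, and -0.21 in the hearts without high atrial transcripts.

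The other core subunits had overlapping groups. Ndufv1, which binds NADH and the flavin, was at 10.09, 9.93 and 9.90 in ETX hearts, against 10.06, 10.03 and 10.03 in PBS hearts, a difference of -0.07 (95% interval -0.23 to 0.10, limma adjusted p = 0.639). ETX replicate 6 was the highest of the 6 hearts and the other ETX hearts were the lowest. Ndufv2, its iron-sulfur partner, was at 10.71, 10.74 and 10.87 in ETX hearts, against 10.64, 10.74 and 10.83 in PBS hearts (difference 0.03, 95% interval -0.15 to 0.21, adjusted p = 0.846). In Ndufs7, whose iron-sulfur cluster hands the electrons to ubiquinone, the values were 11.29, 11.18 and 11.27 in ETX hearts, against 11.42, 11.35 and 11.27 in PBS hearts. The difference of -0.10 (95% interval -0.26 to 0.06) did not pass either (limma adjusted p = 0.449). PBS replicate 12 was within the ETX range of Ndufs7, and against it alone the difference was -0.03. It was -0.07 without ETX replicate 7 or without PBS replicate 3, and -0.04 in the hearts without high atrial transcripts. Ndufs3, part of the ubiquinone-reducing module, lay between 10.59 and 10.64 in ETX hearts and between 10.58 and 10.62 in PBS hearts (difference 0.01, 95% interval -0.13 to 0.15, adjusted p = 0.926). The iron-sulfur subunit Ndufs8 was at 10.26, 10.22 and 10.19 in ETX hearts, against 10.36, 10.22 and 10.10 in PBS hearts, and its means of 10.22 and 10.23 differed by -0.003 (95% interval -0.19 to 0.18, adjusted p = 0.987). The ETX values of Ndufs8 lay within the spread of the PBS values. The signs of Ndufv2, Ndufs3 and Ndufs8 turned with the processing or with the hearts used.

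Of the accessory subunits, Ndufb6 had the smallest p. Ndufb6, a subunit of the distal membrane arm, was at 10.07, 10.17 and 10.18 in ETX replicates 6, 7 and 10, against 9.76, 9.92 and 10.01 in PBS replicates 3, 9 and 12. All 3 ETX hearts were above the PBS hearts, and PBS replicate 3 was the lowest. The difference was 0.24 ± 0.08 (SE, n = 3 per group; 95% interval 0.05 to 0.43), or 1.18-fold, and did not pass (limma adjusted p = 0.142). Against PBS replicate 12 alone it was 0.13.

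The other 4 accessory subunits without overlap between the groups were picked out after their values were seen, and none of them passed. Ndufc2 was at 10.99 to 11.16 in ETX hearts and 10.90 to 10.94 in PBS hearts, a difference of 0.14 (limma adjusted p = 0.300). Ndufa10, which has the fold of a nucleoside kinase, was at 11.12 to 11.22 in ETX hearts and 11.08 to 11.11 in PBS hearts, a difference of 0.08 (adjusted p = 0.530). A pair of small membrane-arm subunits was on the other side. Ndufa1 was at 10.06 to 10.18 in ETX hearts and 10.24 to 10.29 in PBS hearts (difference -0.14, adjusted p = 0.239). Ndufa3 was at 10.63 to 10.72 in ETX hearts, against 10.78 in all 3 PBS hearts (difference -0.12, adjusted p = 0.301). All 5 accessory genes without overlap, 3 higher and 2 lower, belong to the membrane arm, where they are 5 of 18 genes, a share like the 27.7% of all genes tested.

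The accessory subunits that had been listed by name lay close together in both groups. Ndufs4, whose loss in mice causes a mitochondrial encephalopathy, was at 10.05, 10.11 and 10.13 in ETX hearts, against 9.98, 9.96 and 10.09 in PBS hearts. Only PBS replicate 12 reached the ETX range, and the difference was 0.09 (95% interval -0.06 to 0.24, limma adjusted p = 0.474), and 0.01 against that heart alone. Ndufb8, a membrane-arm subunit often used to follow complex I on protein blots, was at 9.52, 9.42 and 9.25 in ETX hearts, against 9.29, 9.35 and 9.21 in PBS hearts. ETX replicates 6 and 7 were above the PBS hearts and ETX replicate 10 among them (difference 0.11, 95% interval -0.08 to 0.31, adjusted p = 0.490). Leaving out ETX replicate 6, ETX replicate 10 or PBS replicate 12 gave 0.05, 0.19 and 0.07. Against PBS replicate 12 alone it was 0.19, and in the hearts without high atrial transcripts -0.03. For 3 further subunits the means differed by 0.03 or less: Ndufa9, which binds a nucleotide near the junction of the arms (10.40 ± 0.07 in ETX and 10.37 ± 0.07 in PBS hearts, SD, n = 3 per group), Ndufs6, a zinc-binding subunit (10.92 ± 0.02 in ETX and 10.90 ± 0.02 in PBS hearts), and Ndufab1, the mitochondrial acyl carrier protein (10.03 ± 0.04 in ETX and 10.01 ± 0.10 in PBS hearts). Their limma adjusted p lay between 0.853 and 0.918.

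The remaining 22 accessory subunits, the 4 without overlap included, had differences between -0.16 (Ndufb3) and 0.14 (Ndufa6), with 16 above 0 and limma adjusted p between 0.239 and 0.989. The ETX and PBS values of 18 of them overlapped. The 15 subunits of the peripheral arm, core ones included, had a median difference of 0.03 with 10 above 0, and the 18 of the membrane arm one of 0.05 with 13 above 0. Ndufab1 sits in both arms and was counted in neither.

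Ndufa4 and Ndufa4l2, which carry Nduf symbols without being complex I subunits in the current assignment, did not pass. Ndufa4 was at 12.18, 12.20 and 12.24 in ETX hearts, against 12.13, 12.20 and 12.17 in PBS hearts (difference 0.04, 95% interval -0.10 to 0.18, limma adjusted p = 0.762). Ndufa4l2, a paralogue that hypoxia-inducible factor raises, was at 6.75, 6.69 and 6.85 in ETX hearts, against 7.07, 6.79 and 6.95 in PBS hearts. PBS replicate 9 lay within the ETX range, and the difference was -0.17 (95% interval -0.37 to 0.03, adjusted p = 0.306), -0.10 without PBS replicate 3 and -0.02 in the hearts without high atrial transcripts.

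**Figure D3:**
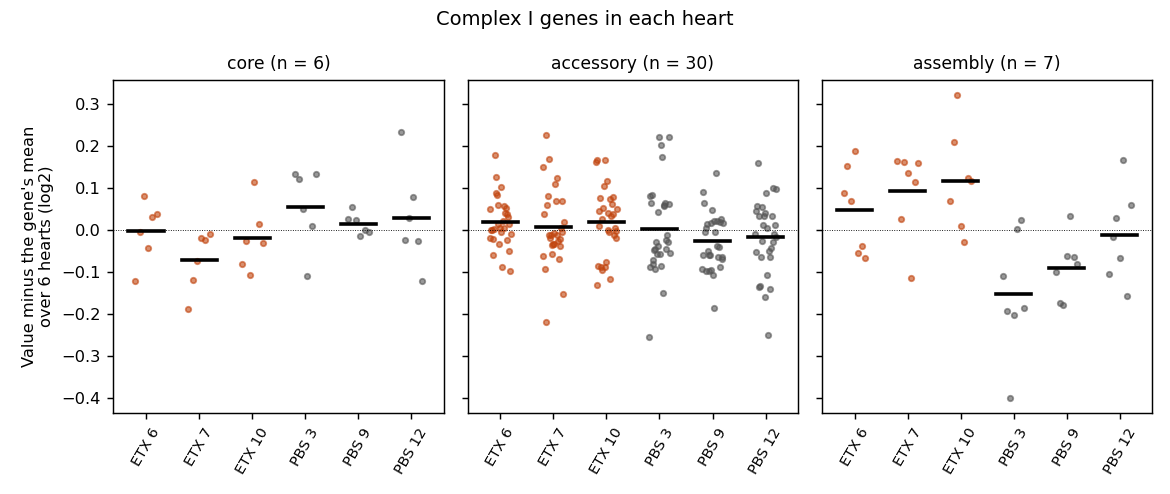
Value of each complex I gene in each heart minus its mean over the 6 hearts (vertical axis, log2), for core, accessory and assembly genes; points are genes and black bars are their mean in that heart. Among the 7 assembly factors the bars run from 0.05 to 0.12 in ETX hearts and from -0.15 to -0.01 in PBS hearts, and those of the accessory genes stay within 0.03 of 0.

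The assembly factors were higher in ETX on average, by between 0.13 and 0.37 for 6 of the 7, without any of them passing. Groups without overlap were found for 5 of 7, 4 higher and 1 lower in ETX, beside 11.6% of all genes tested for higher and 16.1% for lower. Averaged over the 7 genes, the deviation from a gene's own mean was 0.05, 0.09 and 0.12 in ETX replicates 6, 7 and 10, against -0.15, -0.09 and -0.01 in PBS replicates 3, 9 and 12. PBS replicate 3 held the lowest value of 5 of the 7 genes, and PBS replicate 12 lay nearest to the ETX hearts. The median SD within groups was 0.091 for the assembly factors, against 0.078 for the core and accessory subunits and 0.10 for all genes tested.

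Ndufaf6, which acts early in the building of the membrane arm, had the largest difference of the 43 genes. It was at 5.45, 5.54 and 5.70 in ETX replicates 6, 7 and 10, against 4.98, 5.20 and 5.41 in PBS replicates 3, 9 and 12. The groups did not overlap, although PBS replicate 12 lay close to ETX replicate 6. The difference was 0.37 ± 0.12 (SE, n = 3 per group; 95% interval 0.10 to 0.64), or 1.29-fold, and did not pass (limma adjusted p = 0.124). It was 0.16 against PBS replicate 12 alone, 0.26 without PBS replicate 3 and 0.51 with the atrial score as a covariate, passing in none of these.

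Ndufaf1, a member of the complex that builds the proximal membrane arm, was at 7.70, 7.58 and 7.76 in ETX hearts, against 7.36, 7.38 and 7.53 in PBS hearts. Each ETX heart was above each PBS heart, with PBS replicate 12 again the nearest. The difference was 0.26 ± 0.08 (SE; 95% interval 0.07 to 0.44), or 1.20-fold (limma adjusted p = 0.119), and 0.15 against PBS replicate 12 alone. Its promoter held the CCGGAAG motif shown above. Ndufaf7, a mitochondrial arginine methyltransferase, was at 6.78, 6.86 and 6.77 in ETX hearts, against 6.59, 6.60 and 6.59 in PBS hearts. The PBS hearts were nearly equal, and the difference of 0.21 ± 0.06 (SE; 95% interval 0.07 to 0.36), or 1.16-fold, was the same against PBS replicate 12 alone. It had the smallest p of the assembly factors (limma adjusted p = 0.103).

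Ndufaf2, a paralogue of the subunit Ndufa12 that binds a late assembly intermediate, was at 5.92, 5.86 and 5.74 in ETX hearts, against 5.52, 5.66 and 5.66 in PBS hearts. All ETX values were higher, and the difference was 0.22 ± 0.08 (SE; 95% interval 0.05 to 0.40), or 1.17-fold (limma adjusted p = 0.144). In the hearts without high atrial transcripts, ETX replicate 10 against PBS replicates 9 and 12, it was 0.08. Its promoter and that of Ndufaf7 held none of the 5 motifs in the window searched.

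Ndufaf3 and Ndufaf4, which work together on the ubiquinone-reducing module, lay on opposite sides of 0. Ndufaf3 was at 7.13, 7.28 and 7.29 in ETX hearts, against 7.19, 7.10 and 7.01 in PBS hearts, with ETX replicate 6 inside the PBS range (difference 0.13, 95% interval -0.05 to 0.31, limma adjusted p = 0.369). Ndufaf4 was at 7.58, 7.52 and 7.61 in ETX hearts, against 7.64, 7.67 and 7.81 in PBS hearts. All ETX values were lower, and the difference of -0.13 (95% interval -0.30 to 0.03) did not pass (limma adjusted p = 0.319). It was the only Ndufaf gene with a lower mean in ETX. The NRF1 motif of its promoter was also found in those of Ndufaf5 and Ndufa11, whose means were higher in ETX. Ndufaf5, which hydroxylates an arginine of Ndufs7, was at 5.27, 5.50 and 5.46 in ETX hearts, against 5.15, 5.26 and 5.40 in PBS hearts (difference 0.14, 95% interval -0.07 to 0.35, adjusted p = 0.419). PBS replicate 12 was inside the ETX range, and the difference against it alone was 0.01. Without PBS replicate 3 it was 0.08. Against PBS replicate 12 alone the differences of Ndufaf3 and Ndufaf4 were 0.22 and -0.23, and without PBS replicate 12 they were 0.09 and -0.08. In the hearts without high atrial transcripts that of Ndufaf3 was 0.23.

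**Figure D4:**
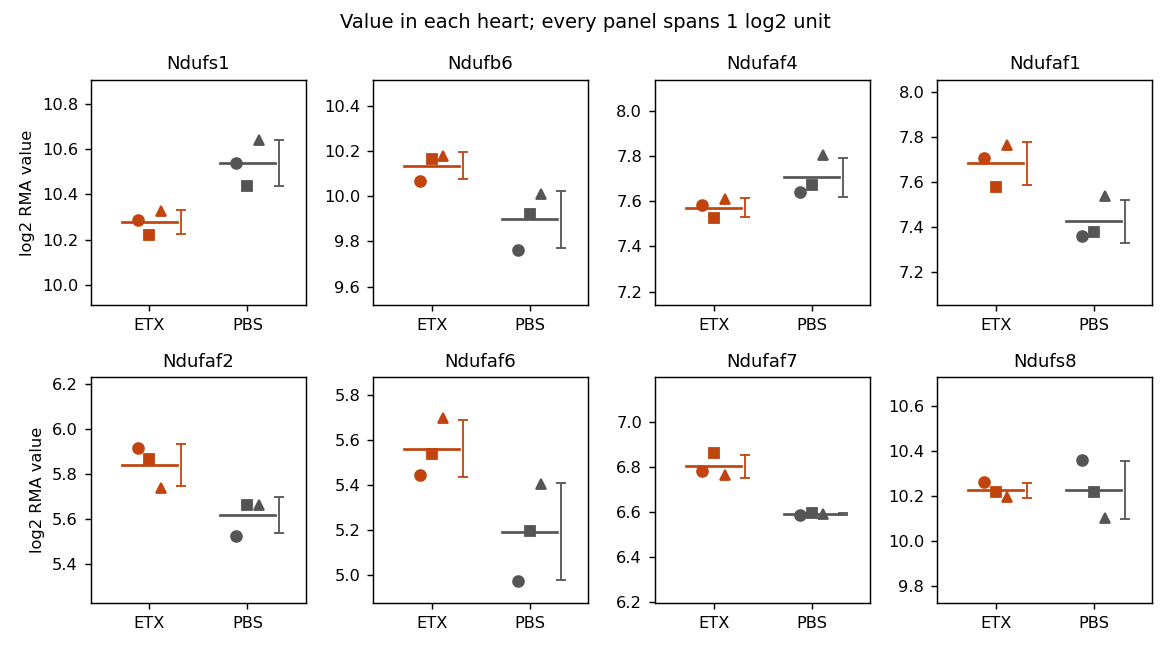
Log2 value in each heart for 8 complex I genes, with group means (horizontal lines) and SD (bars at the right of each group); circles, squares and triangles are ETX replicates 6, 7 and 10 and PBS replicates 3, 9 and 12. In Ndufs1 and Ndufaf4 the ETX hearts lie below the PBS hearts, in Ndufb6, Ndufaf1, Ndufaf2, Ndufaf6 and Ndufaf7 above them, and in Ndufs8 within their range.

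Assembly factors that carry other symbols, a list of 13 of which 12 were measured, had a median difference of 0.08 with 9 above 0. In limma 0 passed, beside 3.56% of all genes tested, and 2 had an unadjusted p under 0.05, beside 21.9%. Tmem126a, a membrane protein needed for the distal membrane arm, was at 9.72, 9.73 and 9.79 in ETX hearts, against 9.48, 9.56 and 9.63 in PBS hearts. Its groups did not overlap (difference 0.19, 95% interval 0.03 to 0.34, limma adjusted p = 0.156). Nubpl, which delivers iron-sulfur clusters, was at 3.78, 3.90 and 3.91 in ETX hearts, against 3.62, 3.81 and 3.54 in PBS hearts, close to the level under which genes count as dim (adjusted p = 0.212). Tmem70, which also serves ATP synthase assembly, had the next smallest p, with a difference of 0.12 (adjusted p = 0.445). The partners of Ndufaf1 in its complex, Ecsit, Acad9 and Tmem126b, differed by 0.05, 0.08 and 0.09.

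Other parts of the respiratory chain gave the following values beside complex I. The 42 tested subunit genes of complexes III, IV and ATP synthase had a median difference of -0.01 with 16 above 0. In limma 0 of them passed and 4 had an unadjusted p under 0.05. Over all genes tested these shares were 3.56% and 21.9%, which also stand beside the counts for complex II and the regulators. Of the 4 subunits of complex II, 0 passed, and Sdhc was the one with an unadjusted p under 0.05 (difference -0.16, limma adjusted p = 0.213). Of 9 regulators of mitochondrial genes 0 passed in limma and 1 had an unadjusted p under 0.05, the estrogen-related receptor Esrra. Esrra was at 7.04, 7.06 and 7.03 in ETX hearts, against 6.97, 6.83 and 6.80 in PBS hearts, without overlap (difference 0.17, adjusted p = 0.204). The coactivator Ppargc1a was at 9.53, 9.22 and 9.61 in ETX hearts, against 9.55, 9.65 and 9.85 in PBS hearts, with ETX replicate 10 above PBS replicate 3 (difference -0.23, adjusted p = 0.306). The factor Yy1 differed by -0.13 without overlap (adjusted p = 0.294).

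The size of the accessory difference depended on the scaling of the arrays. With each array centred on its median it was 0.012 with 18 of 30 genes above 0, and with a further quantile normalization 0.064 with 23 above 0. The median of the assembly factors was 0.18 and 0.24 under these scalings, with 6 of 7 above 0 in both, and 0.16 against PBS replicate 12 alone. Over all alternatives it ran from 0.16 to 0.24, and that of the core subunits from -0.08 to -0.007.

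**Figure D5:**
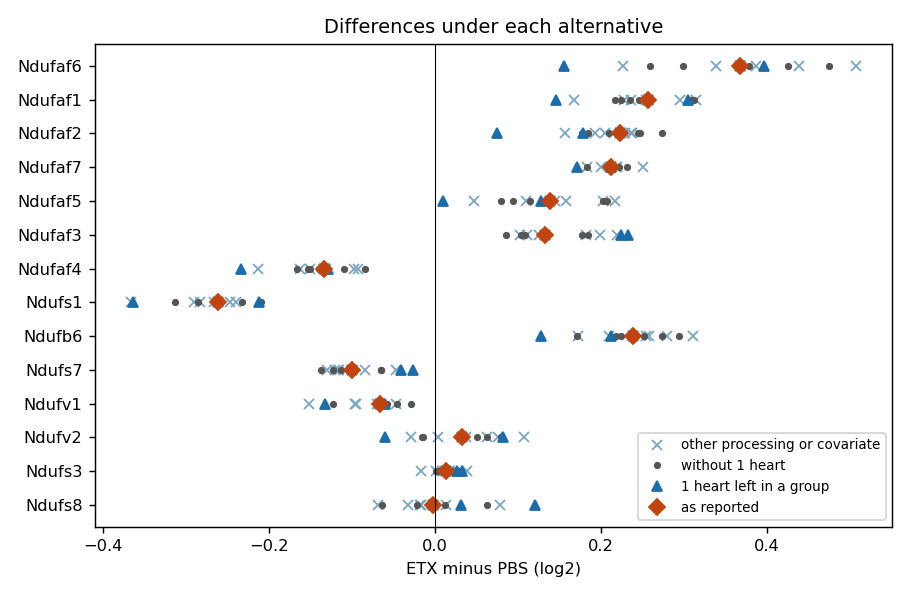
Difference between ETX and PBS hearts (horizontal axis, log2) of the 7 assembly factors, the 6 core subunits and Ndufb6 under each alternative; diamonds are the values as reported, dots leave out 1 heart, triangles leave 1 heart in a group, and crosses are other processing or covariates. The differences of Ndufs1 (-0.37 to -0.21) and Ndufaf7 (0.17 to 0.25) stay on their side of 0, and those of Ndufv2, Ndufs3 and Ndufs8 lie on both sides.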

How the data were processed

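The deposited values are log2 signals per transcript cluster, made by the authors with Affymetrix Expression Console and RMA, per the submitters' processing notes, where versions are missing. As a method RMA corrects the background, normalizes quantiles and summarises probes, which compresses differences of dim transcripts, and the number of arrays, 1 per heart, limits the precision. The lowest and highest values were 1.01 and 13.6, array medians lay between 4.43 and 4.51, and arrays correlated at 0.985 to 0.994. No detection calls were used.

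Genes were named from GEO's platform annotation, which gives 1 symbol for 21789 of 35556 clusters, several for 1621 and none for 12146. Genes with a mean under the lower quartile of gene means (3.45) were left out, leaving 14953. ETX was compared with PBS in limma 3.58.1 (lmFit, eBayes, two-sided, R 4.3.3) over all of these, with Benjamini-Hochberg adjustment. The functions were tested on simulated data. Every Nduf gene is accounted for, and values are given for the core and assembly genes, accessory genes with an unadjusted p under 0.05, and a fixed set of 7. The members, lists and hearts left out were chosen with earlier results of these data known. Promoter sequences come from RefSeq. Figures were drawn with matplotlib 3.10.9.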

Additional observations from a re-analysis of the deposited data

How the results depend on the processing

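No paired analysis was possible because the replicate numbers of the ETX and PBS hearts share none. Of 19 alternatives, each kept the count of complex I genes called at 0 except limma with a variance trend and robust fitting, where it was 1, Ndufs1. That setting called 957 of all genes, the filter at the median of gene means 909, and leaving out 1 heart 94 to 241. Fits leaving out PBS replicates 3 and 9 (high in lung transcripts), leaving out ETX replicates 6 and 7 and PBS replicate 3 (high in atrial ones), and with the lung, atrial or brown fat score as a covariate called 19, 2, 55, 89 and 59 of all genes, so a missing call there says little on a single gene. In the fits with a lone heart in a group, its spread was taken from the other group. The brown fat score was added after seeing the data.

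The core median ran from -0.073 to -0.022 without 1 heart and was -0.083 with the atrial score and -0.068 with the brown fat score. The accessory median ran from 0.022 to 0.049 without 1 heart and was 0.012 with arrays centred, 0.064 after quantile normalization and 0.025 with the brown fat score. The assembly median was 0.16 without the PBS hearts with lung transcripts. The differences of some genes near 0 turned sign. With arrays centred Ndufs3 was at -0.016, Ndufs6 at -0.015, Ndufa9 at -0.0001 and Ndufab1 at -0.0058, and after quantile normalization Ndufs8 was at 0.013. Without 1 heart, Ndufv2 ran from -0.015 to 0.080, Ndufs8 from -0.064 to 0.063 and Ndufab1 from -0.016 to 0.080. Without the PBS hearts with lung transcripts Ndufv2 was at -0.061, Ndufs8 at 0.12 and Ndufab1 at -0.089, and with the lung score at -0.028, 0.078 and -0.079. With the 3 atrial-rich hearts left out, Ndufs8 was at 0.032, Ndufs6 at -0.0076 and Ndufb8 at -0.028, and with the brown fat score Ndufab1 was at -0.012. The cause was not tested. None of these genes passed in any fit.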

Other observations

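Ndufb4, an accessory subunit of the membrane arm, lay on 2 clusters that also name Ndufb4b, so the copies cannot be told apart. The brighter cluster was at 11.00, 10.87 and 10.99 in ETX replicates 6, 7 and 10, against 10.91, 10.89 and 10.94 in PBS replicates 3, 9 and 12, and its groups overlapped, with a difference of 0.04. A second cluster of Ndufs5, shared with its pseudogene, was at 8.51, 8.55 and 8.62 in ETX hearts, against 8.38, 8.43 and 8.51 in PBS hearts. Its difference of 0.12 compares with 0.05 on the cluster that names Ndufs5 alone, and on both the groups overlapped.

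Of the 43 genes, 5 had a second cluster naming no other gene. The dimmer clusters gave differences of 0.05 for Ndufa11, 0.03 for Ndufab1, 0.04 for Ndufb11, 0.03 for Ndufc1 and 0.02 for Ndufs3. On the brighter ones these were 0.06, 0.02, 0.09, 0.06 and 0.01, so each pair had the same sign. Ndufa11 varied in both: PBS replicate 3 was the highest heart (10.51 and 9.81 on the brighter and the dimmer cluster) and PBS replicate 12 the lowest (10.08 and 9.36), with the ETX hearts between them. Alas2, the haem synthesis enzyme of red cell precursors, rose in ETX hearts (8.42, 8.74 and 8.32, against 7.93, 7.84 and 7.96 in PBS hearts, limma adjusted p = 0.0348). Of all genes tested, 3.56% passed in either direction. The globin genes on the same list of red cell markers had no cluster naming a single gene, so Alas2 stands alone there.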
